A study of Homo sapiens with 6 samples.

Results

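ATF4 and 9 genes of the integrated stress response were examined in BT-549 cells, a triple-negative breast cancer line of mesenchymal type. The list was given by symbol as ATF4, ATF5, DDIT3, CHAC1, TRIB3, ASNS, PSAT1, PHGDH, SESN2 and VLDLR. All 10 were found among the 37887 rows of the count table, and all 10 were among the 15450 genes with enough counts to be tested. RNA-seq was performed on 3 libraries of vehicle-treated control cells (shCTL) and 3 libraries of cells silenced for PBRM1, the polybromo subunit of the PBAF chromatin remodeling complex (shPBRM1). The series' description names cells with a tet-PBRM1 shRNA vector, which doxycycline (DOX) switches on. It gives 0.1% DMSO as the vehicle and 500 ng/ml DOX, and the treatment labels give DMSO for the control libraries and DOX for the silenced ones. The labels do not state the time of treatment or whether the line is a clone. The control titles name a control shRNA, and the paper names its control and PBRM1 shRNA lines without the tet prefix or DOX in some of its other assays, so the vectors are not certain. If DOX was given to the silenced cells only, as the treatment labels have it, an effect of the drug and an effect of losing PBRM1 cannot be told apart. Libraries held between 36429395 and 65096297 counts.

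The integrated stress response joins several kinases, which sense different stresses, to a shared event, the phosphorylation of the translation factor eIF2alpha. Overall protein synthesis then falls, while the mRNA of the transcription factor ATF4 is translated more, so that ATF4 activity is set largely at the protein level. ATF4 and its partners switch on genes for amino acid supply, redox balance and, under lasting stress, cell death. Tetracyclines such as DOX can block the mitochondrial ribosome, and mitochondrial stress reaches the same response through the protease OMA1, the messenger DELE1 and the kinase HRI. The 10 genes were therefore read here as a check for that effect of the drug, as far as the silenced cells received it.

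ATF4 binds, with a C/EBP partner, a composite element known as the C/EBP-ATF response element. The letters TGATGNAA were searched on both strands of RefSeq promoters, from 250 bases before to 50 bases after each start site (GRCh38.p14), where all 10 genes had an entry. The motif stood in 2 of the 17 promoters listed for the 10 genes, those of ASNS and CHAC1, and in 3.62% of all 35116 promoters. The ISRE letters GAAANNGAA, for the interferon-stimulated response element that the study followed at other genes, stood in 1 of the 17, that of ATF5, and in 8.11% of all promoters. The windows that hold these letters are shown because ASNS and CHAC1 were both left uncalled by the test and ATF5 was called lower. Capitals mark the motif, and in ATF5 a pair of matches that overlap each other. A match of letters is a description and does not show that a factor binds.
ASNS: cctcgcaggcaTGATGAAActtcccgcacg
CHAC1: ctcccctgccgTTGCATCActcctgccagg
ATF5: tgcaagcaagGAAAGGGAAAGAGAAatga
The ASNS window lies at chr7:97872458-97872487 on the minus strand, with the motif at position -68 from the start site. The CHAC1 window lies at chr15:40953251-40953280 on the plus strand, with the motif read on the other strand at position -209. The ATF5 window lies at chr19:49928805-49928833 on the plus strand, with matches at positions -91 and -85, and a further match stood at position 7.

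PBRM1 itself was first examined as a check of the labels. Its level was 157, 157 and 161 CPM (counts scaled to the library's size, with TMM factors) in the shCTL libraries and 43.3, 40.9 and 41.7 CPM in the shPBRM1 libraries, or 26.5% of control. Markers of a mesenchymal line were abundant, with VIM (vimentin) at a mean of 620.5 CPM in shCTL and 769.8 CPM in shPBRM1. The receptor genes that define the triple-negative class by their absence were at 0 to 2 counts for ESR1 and 0 to 12 counts for PGR in each library, and ERBB2 was at 51.3 and 50.02 CPM. Of the 6 markers of immune, endothelial and fibroblast cells, CD3E had 0 counts in all 6 libraries, and the highest in CPM, PDGFRA, was at 2.32 CPM in shCTL and 1.08 CPM in shPBRM1. Summed, these markers were at 2.92, 4.05 and 3.59 CPM in shCTL and 1.63, 1.34 and 1.02 CPM in shPBRM1, and the part of this decrease in the results was not tested.

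Among the 10 genes, 2 were higher in shPBRM1 cells (PSAT1 and VLDLR), 5 were lower (ATF4, ATF5, DDIT3, TRIB3 and SESN2) and 3 did not pass the test (CHAC1, ASNS and PHGDH). A gene was called where the p of the edgeR quasi-likelihood fit, adjusted by Benjamini-Hochberg across all 15450 genes, was under 0.05. Changes were common in these cells, with 65.1% of all tested genes called, 31.7% higher and 33.5% lower, so that 7 of 10 is close to the background. Changes over 2-fold were seen for VLDLR, which was higher, and for DDIT3, which was lower. Over all genes, 2.91% were called higher and 9.7% lower by more than 2-fold. The libraries of the groups did not overlap for 8 of the 10 genes, against 68.3% of all genes. The median log2 fold change over the 10 genes was -0.13, against -0.0080 over all genes tested. The 3 libraries of a group come from cultures grown in triplicate, so the p-values cover no variation wider than that between such cultures. The p-values come from the edgeR fit, whereas each SE comes separately from the gene's own replicate spread of log2 CPM. The 2 need not go together. ASNS (log2 fold change -0.12) had an SE of 0.027 and an adjusted p of 0.355. ATF4 (log2 fold change -0.13) had a larger SE, 0.045, and a smaller adjusted p, 0.00258.

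**Figure D1:**
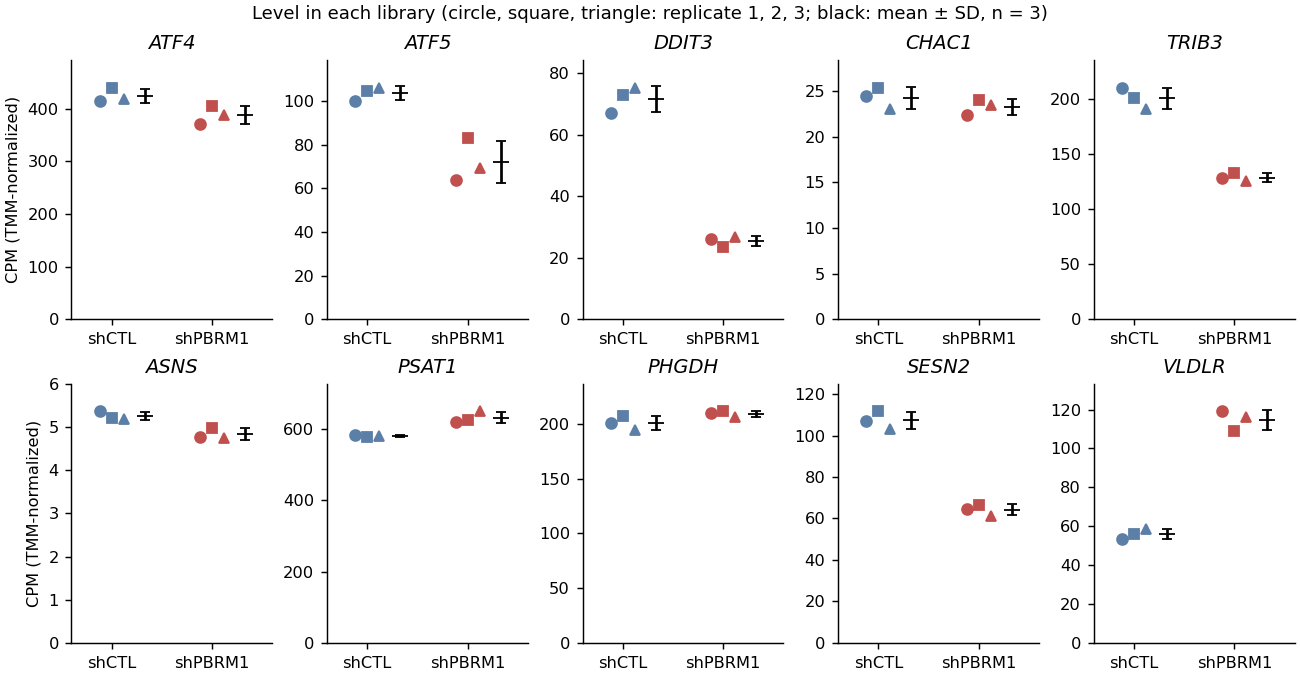
Each panel plots the level of a gene of the list in CPM on a linear axis from 0, with a point for each of the 3 shCTL (blue) and 3 shPBRM1 (red) libraries and the mean ± SD in black. The groups stand apart for DDIT3, TRIB3, SESN2, ATF5 and VLDLR, and the points of CHAC1 and PHGDH overlap.

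ATF4, the factor at the center of the response, was slightly lower in shPBRM1 cells. The shCTL libraries were at 414, 439.7 and 418 CPM, and the shPBRM1 libraries at 371, 405 and 388 CPM. Each shPBRM1 library was below every shCTL library, but the nearest values differed by less than the range within either group. The mean fell from 424 ± 13.8 CPM to 388 ± 17.0 CPM (SD, n = 3), or 91.5% of control (log2 fold change -0.13, SE 0.045, adjusted p = 0.00258, edgeR). That call was lost when shCTL replicate 2 was left out (log2 fold change -0.10, adjusted p = 0.057). These are levels of ATF4 mRNA (chr22:39519695-39522685, plus strand, GRCh38), and its protein was not measured in these libraries. The ATF4 pseudogene with the most reads, ATF4P3, held 0.301% as many counts as ATF4.

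ATF5 (chr19:49928702-49933935, plus strand), a related bZIP factor that is translated like ATF4 and takes part in the mitochondrial unfolded protein response, was also lower. Its level was 99.99, 105 and 106 CPM in shCTL and 63.9, 83.0 and 69.4 CPM in shPBRM1. The shPBRM1 libraries were all lower, and replicate 2 lay nearest to the controls. The mean was 69.6% of control (log2 fold change -0.53, SE 0.11, adjusted p = 0.0126), and without shPBRM1 replicate 3 the call was lost (log2 fold change -0.50, adjusted p = 0.0507). ATF5 lies opposite NUP62 and IL4I1, an interferon-responsive amino acid oxidase. NUP62, at 103 CPM in shCTL and 101 CPM in shPBRM1, did not pass the test (log2 fold change -0.016, adjusted p = 0.713). IL4I1 fell from 9.91 to 4.01 CPM (log2 fold change -1.30, adjusted p = 7.82e-17). Whether reads were counted by strand is not given in the sources used here, so reads from the overlap cannot be assigned with certainty.

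DDIT3 (chr12:57516588-57521737, minus strand) encodes CHOP, the bZIP factor that links lasting stress to cell death. It fell the most of the 10 genes. Its level was 67.0, 72.9 and 75.3 CPM in shCTL and 26.2, 23.7 and 26.7 CPM in shPBRM1. All 3 silenced libraries were under every control library by a gap wider than the range of either group. The mean fell to 35.6% of control, a 2.81-fold difference (log2 fold change -1.49, SE 0.073, adjusted p = 7.14e-31). Matched by replicate number, the log2 differences were -1.36, -1.62 and -1.49. DDIT3 overlaps MARS, a tRNA synthetase gene on the other strand, which rose by 0.40 on the log2 scale (adjusted p = 6.92e-15).

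TRIB3 (chr20:362835-397559, plus strand) is a pseudokinase induced by ATF4 and CHOP that in turn restrains them. Its level was 210.4, 201 and 191 CPM in shCTL and 128, 133 and 126 CPM in shPBRM1. The groups did not overlap, and the mean fell to 64.2% of control (log2 fold change -0.64, SE 0.046, adjusted p = 1.53e-22).

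SESN2 (chr1:28259527-28282491, plus strand) encodes sestrin 2, a leucine sensor that holds back mTORC1. It stood at 107, 112 and 103 CPM in shCTL and at 64.5, 66.6 and 61.4 CPM in shPBRM1. The separation was of the same kind as for TRIB3, and the mean was 59.8% of control (log2 fold change -0.74, SE 0.047, adjusted p = 2.11e-24). The SESN2 differences by replicate number were nearly equal, at -0.73, -0.74 and -0.75.

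CHAC1 (chr15:40952962-40956519, plus strand) encodes an enzyme that degrades glutathione and is often used as a readout of ATF4 activity. Its level was 24.4, 25.3 and 23.0 CPM in shCTL and 22.3, 23.9 and 23.5 CPM in shPBRM1. The groups overlapped. CHAC1 did not pass the test (log2 fold change -0.06, SE 0.051, adjusted p = 0.396), and the 95% interval of the difference ran from -0.20 to 0.081. The fitted differences of DDIT3, TRIB3, SESN2, ATF5, VLDLR and PSAT1 lay outside that range, and those of ATF4, ASNS and PHGDH lay within it. These are fitted values without their own intervals, and differences between genes were not tested.

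Among the enzymes of amino acid synthesis, PSAT1 was higher, and PHGDH and ASNS did not pass the test. PSAT1 (chr9:78297143-78330093, plus strand) and PHGDH (chr1:119648411-119744226, plus strand) catalyze neighboring steps of serine synthesis. PSAT1 was at 582, 578 and 581 CPM in shCTL and 620.5, 625 and 649.6 CPM in shPBRM1. The control libraries lay close together, and all silenced libraries were above them. The mean was 109% of control (log2 fold change 0.12, SE 0.021, adjusted p = 0.00158). With library size as the only scaling, PSAT1 was no longer called (log2 fold change 0.073, adjusted p = 0.0663). PHGDH was at 201, 208 and 195 CPM in shCTL and 210.5, 211 and 206 CPM in shPBRM1. Its groups overlapped (log2 fold change 0.06, SE 0.029, adjusted p = 0.146), with a 95% interval from -0.023 to 0.14.

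ASNS (chr7:97852118-97872542, minus strand), which makes asparagine and is a textbook target of ATF4, is uncertain in these data. It held only 200, 253 and 262 counts in shCTL and 286, 194 and 302 counts in shPBRM1, or 5.25 ± 0.092 CPM and 4.83 ± 0.14 CPM (SD, n = 3). The libraries did not overlap, yet ASNS was not called (log2 fold change -0.12, SE 0.027, adjusted p = 0.355). The 95% interval from the spread of its libraries, -0.20 to -0.048, did not include 0 and so differs from the call. The pseudogene ASNSP1, a copy of ASNS, held 332% as many counts as ASNS over the 6 libraries. ASNSP1 was at 22.2 ± 0.59 CPM in shCTL and 11.8 ± 1.2 CPM in shPBRM1 (log2 fold change -0.90, SE 0.089, adjusted p = 1.82e-16). Added together, ASNS and ASNSP1 were at 28.1, 26.8 and 27.5 CPM in shCTL and 18.0, 15.8 and 16.3 CPM in shPBRM1, a log2 ratio of -0.72. How counting divided reads between the copies is not known, so the direction of ASNS itself is not settled by its own row.

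VLDLR (chr9:2621834-2660053, plus strand), a lipoprotein receptor, was the gene of the list that rose by more than 2-fold. It was at 53.4, 56.3 and 58.5 CPM in shCTL and 119, 109 and 116 CPM in shPBRM1. Every silenced library was well above every control library. The mean rose from 56.0 ± 2.55 CPM to 115 ± 5.15 CPM (SD, n = 3), a 2.05-fold difference (log2 fold change 1.03, SE 0.054, adjusted p = 6.08e-30). The difference stood just past 2-fold and fell just under it with library size as the only scaling (log2 fold change 0.98) or without shCTL replicate 1 (log2 fold change 0.9995). The antisense transcript VLDLR-AS1, at 3.04 CPM in shCTL and 1.66 CPM in shPBRM1, was lower (log2 fold change -0.88, adjusted p = 8.94e-06).

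**Figure D2:**
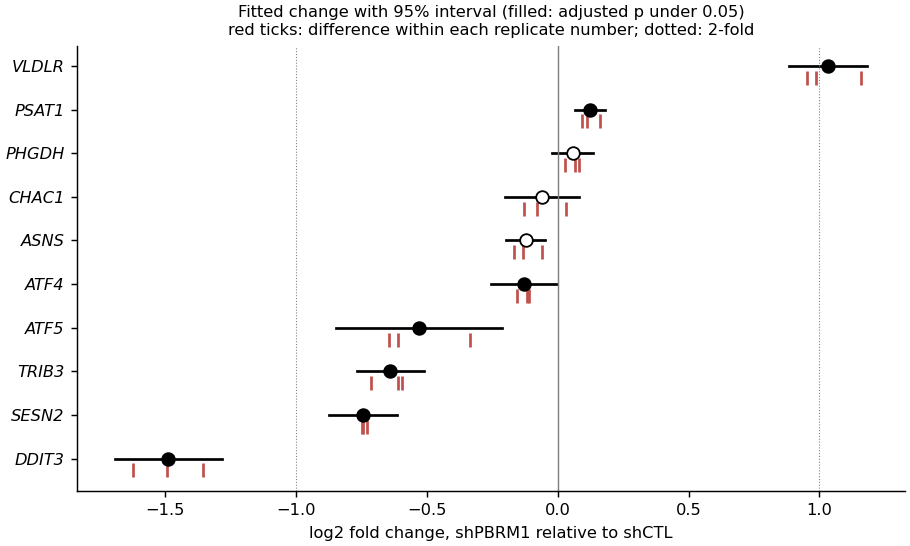
The x axis gives the log2 fold change of shPBRM1 relative to shCTL for the 10 genes, as the fitted value with its 95% interval (black) and as the 3 differences within replicate numbers (red). DDIT3, at -1.49, and VLDLR, at 1.03, lie past the dotted lines at 2-fold, and CHAC1, PHGDH and ASNS (open) did not pass the test.

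The genes differed widely in level when compared per length, as CPM per kb of the principal transcript. In shCTL cells the order was PSAT1 at 265, ATF4 at 209.9, TRIB3 at 80.4, PHGDH at 77.9 and DDIT3 at 76.3 CPM per kb. ATF5 at 50.1, SESN2 at 31.1, CHAC1 at 15.5, VLDLR at 6.12 and ASNS at 2.23 CPM per kb followed. The place of ASNS, in both groups, is that of its own row alone. With ASNSP1 holding 332% as many counts, that place is not settled. The libraries of TRIB3 and PHGDH overlapped, as did those of PHGDH and DDIT3, so their order is not resolved. In shPBRM1 cells no neighbors overlapped. DDIT3 took place 6, at 27.1 CPM per kb, below PHGDH at 81.0, TRIB3 at 51.6 and ATF5 at 34.9 CPM per kb. PSAT1 at 289 and ATF4 at 192 CPM per kb remained the most abundant. With all annotated exons counted as length, PHGDH took place 7 in shCTL and place 5 in shPBRM1, and VLDLR passed CHAC1 in shPBRM1.

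By the shape of their levels over the 6 libraries, the genes most like ATF4 were EIF4EBP1, DDX55 and WDR45B. The root-mean-square differences in log2 CPM deviation were 0.0087, 0.015 and 0.017 among 11531 genes searched. For DDIT3 CD24 and CD274 were nearest, with differences of 0.041 and 0.050. All were measured in the same 6 libraries, and the likeness is given as a description only.

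Upstream of ATF4, 4 kinases of eIF2alpha were tested. EIF2AK4 (GCN2, the sensor of amino acid shortage) was higher, EIF2AK2 was lower and 2 did not pass the test, so that 2 of 4 were called where 65.1% of all tested genes were. EIF2AK2 encodes PKR, the sensor of double-stranded RNA, which is itself an interferon-stimulated gene. It fell from 577 ± 23.4 CPM to 165 ± 1.99 CPM (SD, n = 3; log2 fold change -1.80, adjusted p = 4.19e-43). EIF2AK4 rose by a log2 fold change of 0.46 (adjusted p = 1.38e-16). EIF2AK1 (HRI, which mitochondrial stress engages) was at 296 CPM in shCTL and 301 CPM in shPBRM1 (log2 fold change 0.028, adjusted p = 0.492). EIF2AK3 (PERK, the sensor of the endoplasmic reticulum) had a log2 fold change of 0.12 (adjusted p = 0.134). These mRNA levels do not report kinase activity.

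A list of 11 genes held subunits of eIF2, of its exchange factor eIF2B and of the eIF2alpha phosphatase, and also EIF2A, a separate initiation factor that is no subunit of these. Of the 11, 3 were higher (EIF2S2, EIF2B3 and EIF2A), 3 were lower (EIF2S3, EIF2B1 and PPP1R15A) and 5 did not pass the test, close to the 31.7% higher and 33.5% lower over all tested genes. PPP1R15A encodes GADD34, the inducible phosphatase subunit that ends the response and is itself induced by it. It fell from 128 ± 4.46 CPM to 52.5 ± 3.77 CPM (SD, n = 3; log2 fold change -1.29, adjusted p = 9.35e-28). The other 5 called genes of that group changed by less than 2-fold. The constitutive subunit gene PPP1R15B had a log2 fold change of -0.065 and did not pass the test (adjusted p = 0.0896).

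The relay from mitochondria to HRI was tested with 6 genes, of which 3 were higher, 1 was lower and 2 did not pass the test, so that 4 of 6 were called where 65.1% of all tested genes were. OMA1, the protease that starts the relay, had a log2 fold change of 0.25 (adjusted p = 0.00215). DELE1, the messenger it cuts, had one of -0.25 (adjusted p = 4.66e-05). PHB and PHB2, the prohibitins that scaffold the inner membrane, rose by log2 fold changes of 0.52 and 0.23 (adjusted p = 4.42e-12 and 5.79e-08). None of the 6 moved by more than 2-fold in this comparison. OMA1 and DELE1 work by protein cleavage, which mRNA does not show.

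Among 10 other bZIP factors of the response, 8 were lower, 0 were higher and 2 did not pass the test (ATF6 and ATF6B), where 33.5% of all tested genes were lower and 31.7% higher. ATF6B was called higher in the fit blocked on replicate number, which gave 1 higher call (8 lower), and also without shCTL replicate 1. ATF3, which ATF4 and other stress pathways induce, fell from 54.2 ± 0.64 CPM to 22.2 ± 0.11 CPM (SD, n = 3; log2 fold change -1.29, adjusted p = 2.29e-29). CEBPA, a factor of differentiation, was low throughout and fell from 3.99 to 1.33 CPM (log2 fold change -1.61, adjusted p = 3.23e-12). CREBRF, a regulator of nutrient stress, fell from 45.2 to 19.9 CPM (log2 fold change -1.18, adjusted p = 8.2e-26). CEBPB and CEBPG, both partners of ATF4, had log2 fold changes of -0.63 and -0.59 (adjusted p = 2.09e-22 and 1.19e-21). The median over this group was -0.56. This list too was chosen with earlier results of these data known, so its distance from the background is a description only.

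Of 27 other stress output genes tested, 22 were lower, 3 were higher (STC2, ERO1A and ATG5) and 2 did not pass the test (DDIT4 and JDP2). Over all tested genes, 33.5% were lower and 31.7% higher. The list was chosen with earlier results of these data known, so its distance from these shares is a description only. The median of the list in log2 fold change was -0.83, against -0.0080 over all genes. By more than 2-fold, 9 were lower (9.7% of all genes), and the libraries did not overlap for 26 (68.3% of all genes). Many of these genes have other inducers too, such as hypoxia for VEGFA and NDRG1, p53 for PMAIP1 and glucose for TXNIP, so the list is not a pure readout of ATF4. The share each inducer had was not tested. The genes lower by more than 2-fold fall into a few kinds. NUPR1, a stress-induced chromatin protein, fell from 37.8 ± 3.78 CPM to 5.88 ± 0.297 CPM (SD, n = 3; log2 fold change -2.70, adjusted p = 6.67e-36). NDRG1, a growth-arrest gene, fell from 53.7 ± 1.88 CPM to 7.53 ± 0.951 CPM (log2 fold change -2.83, adjusted p = 4.76e-37). TXNIP, an inhibitor of thioredoxin, fell from 291 ± 3.41 CPM to 69.9 ± 1.42 CPM (log2 fold change -2.06, adjusted p = 3.39e-47). All 3 are intracellular proteins, and each lost over 2 units on the log2 scale.

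Genes for secreted factors were also among those that fell. FGF21, a hormone released under mitochondrial and amino acid stress, dropped from 4.23 ± 0.23 CPM to 0.733 ± 0.072 CPM (SD, n = 3; log2 fold change -2.52, adjusted p = 2.62e-18). GDF15, the other stress hormone commonly paired with it, had a log2 fold change of -0.82, from 443.5 to 251 CPM (adjusted p = 1.97e-27). ADM2, INHBE and VEGFA, a peptide hormone, an activin subunit and an angiogenic factor, had log2 fold changes of -1.15, -1.12 and -1.14. Of the remaining genes past 2-fold, PMAIP1 encodes the cell death protein NOXA and HERPUD1 a component of protein degradation at the endoplasmic reticulum. Their log2 fold changes were -1.59 and -1.05. STC2, a secreted glycoprotein induced by ATF4, was higher, from 654 ± 17.4 CPM to 859 ± 12 CPM (log2 fold change 0.39, adjusted p = 1.55e-15).

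**Figure D3:**
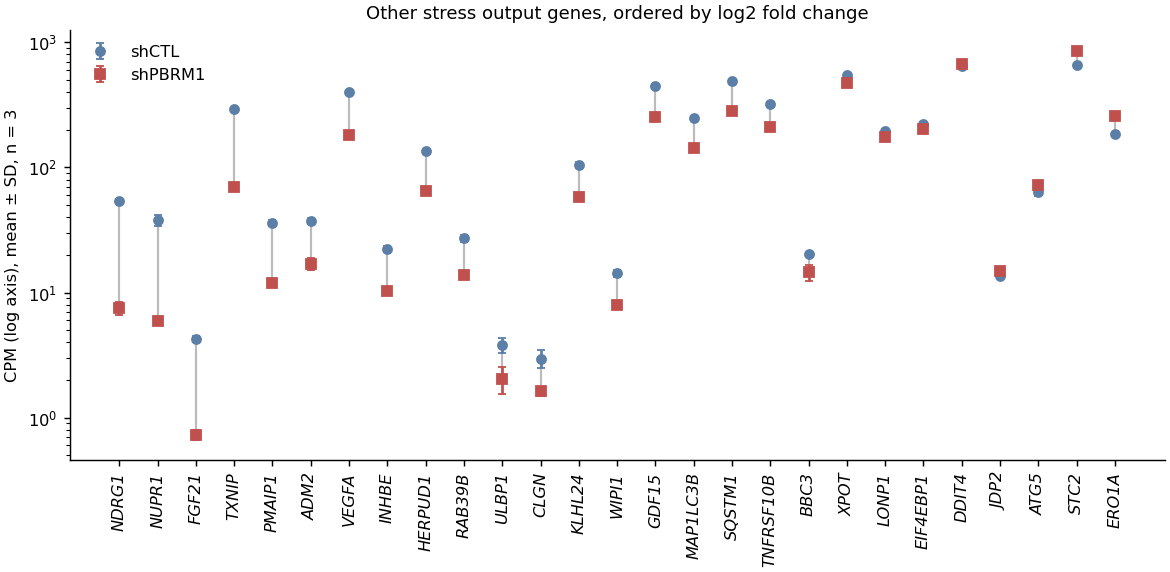
The 27 other stress output genes are ordered from the largest fall to the largest rise, with the mean ± SD of 3 libraries per group in CPM on a log axis (blue circles for shCTL, red squares for shPBRM1). NDRG1, NUPR1 and FGF21 show the widest gaps, and STC2 and ERO1A lie above control.

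The metabolic arm of the response was tested with 19 other amino acid and one-carbon synthesis genes. Of these, 4 were higher, 10 were lower and 5 did not pass the test, where 31.7% of all tested genes were higher and 33.5% lower. Their median log2 fold change was -0.21, and none passed 2-fold. SHMT1, the cytosolic serine hydroxymethyltransferase, rose from 27.5 ± 0.305 CPM to 39.8 ± 0.264 CPM (SD, n = 3; log2 fold change 0.54, adjusted p = 5.54e-13). ALDH1L2, a mitochondrial folate enzyme, fell from 231 ± 9.25 CPM to 144 ± 6.03 CPM (log2 fold change -0.69, adjusted p = 1.43e-23). PSPH, which completes the serine pathway after PHGDH and PSAT1, had a log2 fold change of -0.37 (adjusted p = 5.16e-12), so the 3 enzymes of that pathway did not move alike. MTHFD2, a mitochondrial folate enzyme widely used as a marker of mitochondrial stress, was at 126 ± 3.02 CPM and 124 ± 4.08 CPM (log2 fold change -0.021, adjusted p = 0.618).

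Among 12 amino acid transporters tested, 5 were higher, 4 were lower and 3 did not pass the test, beside 31.7% higher and 33.5% lower over all tested genes. SLC43A1, a carrier of large neutral amino acids, fell from 10.6 ± 0.762 CPM to 3.09 ± 0.181 CPM (SD, n = 3; log2 fold change -1.77, adjusted p = 2.24e-21). The genes called higher were SLC7A5, SLC7A11, SLC7A6, SLC1A5 and SLC7A1. SLC7A5, the light chain of the main leucine exchanger, rose from 873 to 1409 CPM (log2 fold change 0.69, adjusted p = 2.18e-26). SLC7A11, the cystine importer, rose from 179.8 to 263 CPM (log2 fold change 0.55, adjusted p = 2.62e-20). Both are known targets of ATF4, as are SLC1A4 and SLC38A2, which were called lower along with SLC43A1 and SLC1A3.

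Of 20 cytosolic tRNA synthetase genes, 8 were higher, 5 were lower and 7 did not pass the test, so that 13 of 20 were called, close to the 65.1% of all tested genes. Their median log2 fold change was 0.068. WARS, the tryptophanyl-tRNA synthetase and an interferon-responsive gene, was the only one to pass 2-fold, and it fell from 781 ± 12.8 CPM to 299 ± 4.17 CPM (SD, n = 3; log2 fold change -1.38, adjusted p = 7.97e-39). The other genes called lower, AARS, GARS, TARS and YARS, had log2 fold changes from -0.41 to -0.15. Those called higher were QARS, MARS, FARSB, VARS, IARS, EPRS, FARSA and LARS, with log2 fold changes from 0.48 (QARS) to 0.10 (LARS).

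**Figure D4:**
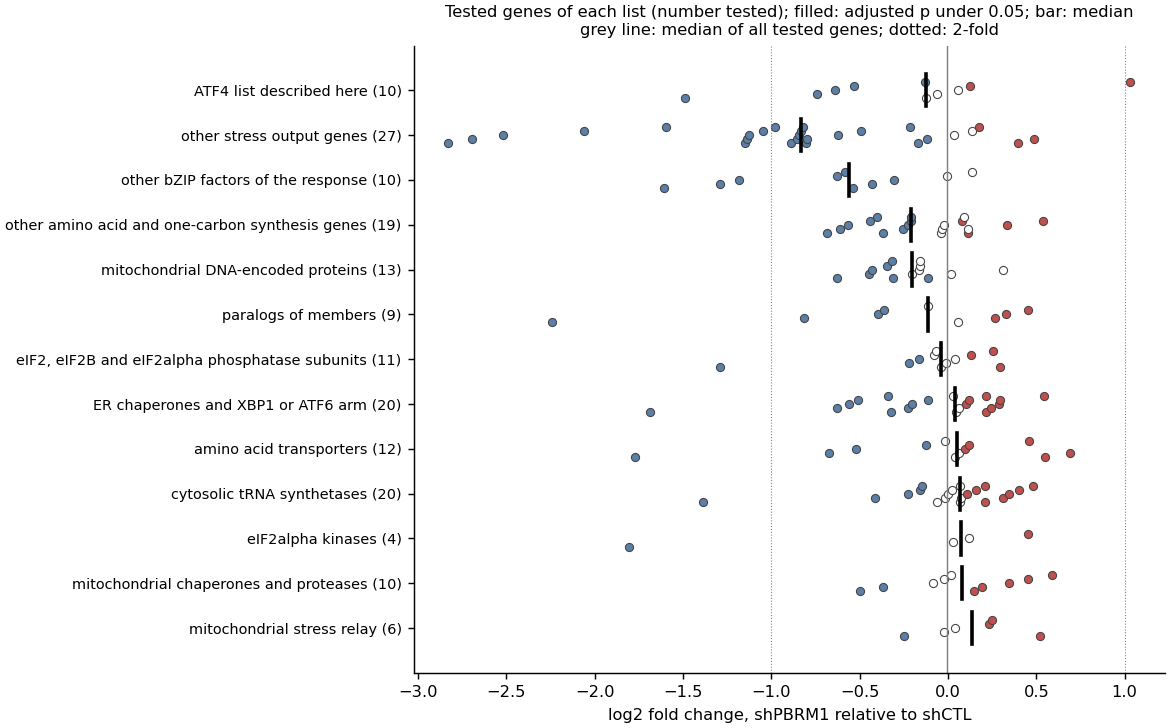
Each point is a tested gene, placed by its log2 fold change of shPBRM1 relative to shCTL and filled if it passed the test, in rows for the 10 genes and the 12 related lists. Black bars mark medians, which lie at -0.83 for other stress output genes, -0.56 for other bZIP factors and -0.13 for the 10 genes, while the remaining lists lie between -0.21 and 0.14. The lists were chosen with earlier results of these data known.

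The arms of the unfolded protein response outside ATF4 were tested with 20 genes of the endoplasmic reticulum. Of these, 8 were higher, 9 were lower and 3 did not pass the test, where 31.7% of all tested genes were higher and 33.5% lower. The median was 0.038. ERN1, which encodes the sensor IRE1alpha, fell from 42.0 ± 1.11 CPM to 13.1 ± 0.455 CPM (SD, n = 3; log2 fold change -1.68, adjusted p = 7.73e-32). HSPA5, the chaperone BiP, had a log2 fold change of -0.22 (adjusted p = 2.89e-11).

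Mitochondrial chaperones and proteases, outputs of the mitochondrial unfolded protein response, were examined by their mRNA. Their mRNA levels do not report the state of the organelle. Of 10 tested, 5 were higher (HSPD1, HSPE1, CLPP, SPG7 and TRAP1), 2 were lower (HSPA9 and DNAJA3) and 3 did not pass the test, beside 31.7% higher and 33.5% lower over all tested genes. HSPE1, the small chaperonin, rose from 24.2 ± 1.39 CPM to 36.4 ± 1.5 CPM (SD, n = 3; log2 fold change 0.59, adjusted p = 2.31e-13). Its partner HSPD1 rose by a log2 fold change of 0.35 (adjusted p = 1.1e-12). DNAJA3, a cochaperone, had a log2 fold change of -0.50 (adjusted p = 8.01e-13). None of the 10 genes passed 2-fold. LONP1, a matrix protease counted above among the other stress output genes, had a log2 fold change of -0.17 (adjusted p = 3.53e-05).

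Transcripts of the mitochondrial genome itself were tested with its 13 protein genes. Of these, 7 were lower (33.5% of all tested genes were), 0 were higher and 6 did not pass the test, with a median log2 fold change of -0.20. Of those that did not pass, MT-ND2 and MT-ND3 had log2 fold changes of 0.016 and 0.31 (adjusted p = 0.86 and 0.0754). Together the 13 genes took 4.05%, 3.45% and 3.58% of counts in shCTL libraries and 3.003%, 3.07% and 3.09% in shPBRM1 libraries. The groups did not overlap, and shCTL replicate 1 was the highest. MT-ND6, a complex I subunit encoded on the strand opposite to the others, fell the most, from 684 ± 68.2 CPM to 443 ± 36.1 CPM (SD, n = 3; log2 fold change -0.63, adjusted p = 0.0057). The count of lower calls changed with the settings. It was 3 without shPBRM1 replicate 2, 4 without shPBRM1 replicate 3 and 1 at an adjusted p under 0.001. In the fit blocked on replicate number it was 9. Without robust estimation it was 11, and MT-ND3 was called higher.

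**Figure D5:**
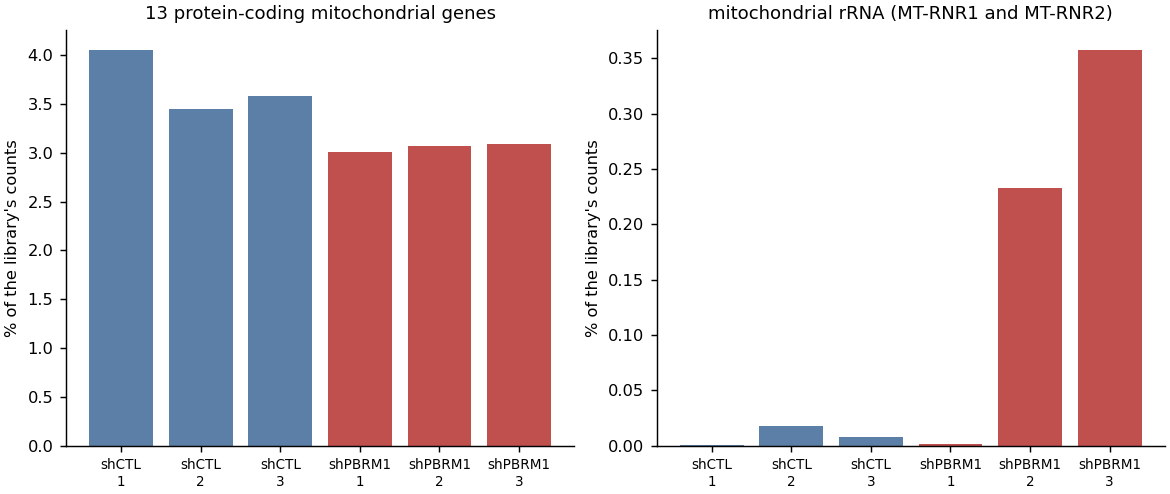
Bars give the percent of each library's counts on the 13 mitochondrial protein genes (left) and on the mitochondrial ribosomal RNAs MT-RNR1 and MT-RNR2 (right), from 0. The protein genes take 3.003% to 3.09% in shPBRM1 against 3.45% to 4.05% in shCTL, and the ribosomal RNAs stand out in shPBRM1 replicates 2 and 3, at 0.233% and 0.357%.

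Relatives of the 10 genes in sequence were tested as a list of 9 paralogs. Over all tested genes, 31.7% were higher and 33.5% lower. Of the 9, 3 were higher (CHAC2 and SESN1 among them), 4 were lower (SESN3, LRP1, LRP8 and TRIB1) and 2 did not pass the test (TRIB2 and ASNSD1). LRP8, the closest relative of VLDLR, and LRP1 had log2 fold changes of -0.40 and -0.82 (adjusted p = 1.91e-13 and 5.55e-27), beside 1.03 for VLDLR. TRIB1 had one of -0.36 (adjusted p = 1.48e-09), beside -0.64 for TRIB3, and TRIB2 one of 0.059 (adjusted p = 0.458). SESN3 was at only 1.10 ± 0.292 CPM in shCTL and 0.231 ± 0.032 CPM in shPBRM1 (SD, n = 3; log2 fold change -2.24, adjusted p = 1.18e-07). SESN1 and CHAC2 had log2 fold changes of 0.27 and 0.45 (adjusted p = 0.032 and 0.021), and the libraries of CHAC2 overlapped. The calls for SESN1 and CHAC2 were not made by DESeq2, which called 1 paralog higher. Without shCTL replicate 3 or without shPBRM1 replicate 2, 1 paralog was called higher as well.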

How the data were processed

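RNA was prepared from BT-549 cells with a stranded mRNA kit (TruSeq Stranded mRNA). The deposited table holds raw counts by gene symbol for the 6 libraries, as the authors' counting gave them. The submitters' processing notes name CASAVA 1.8.2, STAR 2.7.9a, featureCounts, DESeq2 1.24.0 and GRCh38.p7. The annotation release and the strand setting are not given in the sources used here. Groups follow the sample titles; the control columns carry no word for control and were matched by their replicate numbers and by the absence of shPBRM1 from their names. The 10 genes and the 12 related lists were chosen with earlier results of these data known.

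Counts were analyzed as deposited with edgeR 4.0.16 in R 4.3.3. TMM scaling, filterByExpr and a robust quasi-likelihood F-test were used, with Benjamini-Hochberg adjustment over 15450 genes at 0.05. Of 37887 rows, 12608 held no counts and 14 carried dates in place of symbols. A floor of 3 counts equals 0.0471 to 0.0804 CPM per library, for counting error only. Standard errors come from replicate spread of log2 CPM (2 counts added), and 95% intervals from the t distribution with 4 degrees of freedom. The change is given on this log2 scale, and percent of control as a ratio of mean CPM. Positions and lengths are those of GENCODE release 29 (GRCh38). On simulated data, 177 of 200 genes changed by 2-fold and 148 of 200 changed by 1.5-fold were called, with 14 and 7 false calls. The simulation raised only these 200 genes and held no pairing of libraries, whereas 65.1% of tested genes were called here. These figures therefore need not hold for these data.

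Libraries of a group differed beyond sampling noise (chi-square per degree of freedom 4.92 to 24.9). Deviations from group means correlated between libraries of the same replicate number, with r of 0.734, 0.593 and 0.419 over 5622 genes (genes are not independent of each other). Pairs of different numbers ran from -0.671 to 0.464, and the highest of these, shCTL 2 with shPBRM1 3, exceeded the same-number pair 3. Every same-number pair was over 0.1. The numbers, from the titles, may therefore pair the libraries, though this is not settled. The reported fit, and the SE and intervals taken separately from replicate spread, used the group only and left any pairing out. A fit blocked on replicate number was run as an alternative. In it 2 of the 10 genes were again higher and 5 lower. Its adjusted p was 8.87e-05 for ATF4 and 2.38e-46 for ATF5 (edgeR). Other alternatives were DESeq2 1.42.0, RLE factors, library size alone, other filters on low counts, an adjusted p under 0.001, no robust estimation (chosen after seeing the data) and leaving out each library. Genes were named by a rule: all 10 genes, PBRM1, paralogs, list genes past 2-fold or else the called gene with the largest rise and fall, and the 3 genes most like ATF4 and DDIT3. Of the genes this rule names, 2 are not reported here. Other names complete a short count or stand for a known role, and were chosen after their values were seen.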

Additional observations from a re-analysis of the deposited data

How the results depend on the processing

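Each of the 10 genes kept the sign of its log2 fold change in all 13 alternative fits, and 3 lost a call in 1 fit each. ATF4 was not called without shCTL replicate 2, ATF5 without shPBRM1 replicate 3, and PSAT1 with library size as the only scaling. DDIT3 ranged from -1.54 to -1.44 (log2 fold change), VLDLR from 0.98 to 1.07, SESN2 from -0.79 to -0.71, TRIB3 from -0.69 to -0.61 and ATF5 from -0.63 to -0.45.

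With library size only, 1 of the 10 genes was called higher (2 in the reported fit) and 0 by more than 2-fold (1 in the reported fit), and the higher calls were 2 amino acid synthesis genes and 3 transporters. At an adjusted p under 0.001, 1 of the 10 genes was higher and 3 were lower, with 2 amino acid synthesis genes, 3 transporters and 1 paralog higher and 1 mitochondrial gene lower. Where a mean count of 50 or more was required, 266 were higher and 939 lower by more than 2-fold (449 and 1499 in the reported fit), as fewer genes were tested. With no filter, 1 other bZIP factor was higher, and 1 mitochondrial gene was higher and 11 were lower. Without robust estimation the mitochondrial counts were also 1 and 11. DESeq2 called 1 mitochondrial gene and 1 paralog higher. In the fit with the replicate block, 1 other bZIP factor was called higher, and no other count moved by over 1.5 times. The causes of these differences were not tested.

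Leaving out each library gave 0 to 1 of the 10 genes higher by more than 2-fold (0 without shCTL replicate 1), 0 to 1 other bZIP factors higher, 0 to 1 mitochondrial genes higher, 3 to 10 mitochondrial genes lower and 1 to 3 paralogs higher. ASNS was among the genes of low counts, at 194 to 302 counts per library, and the part of depth in its missing call was not tested.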

Other observations

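Mitochondrial ribosomal RNA differed between libraries of the same group. MT-RNR2 held 108, 4851 and 2398 counts in the shCTL libraries and 442, 54265 and 136151 counts in the shPBRM1 libraries, and MT-RNR1 held 58, 3593 and 1499 counts and 348, 39089 and 96486 counts. Both RNAs were lowest in replicate 1 of each group. The poly(A)-selected preparation removes most ribosomal RNA, and MT-RNR2 did not pass the test between groups (log2 fold change 4.55, adjusted p = 0.158). Their part in the mitochondrial results was not tested.

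Some markers of other cell types were lower in shPBRM1 cells. PTPRC, the leukocyte antigen CD45, was at 26, 40 and 44 counts in shCTL and 12, 4 and 6 counts in shPBRM1 (log2 fold change -2.55, adjusted p = 4.11e-07). CDH1, the epithelial cadherin, was at 5.002 CPM in shCTL and 1.51 CPM in shPBRM1.

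Among values from 1 to 20, between 60.9% and 61.8% were even numbers in each library.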
